A study of Mus musculus with 7 samples.

Results

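The cytosolic sulfotransferases were followed in the livers of CDAHFD-fed mice through 10 genes, Sult1a1, Sult1b1, Sult1c2, Sult1d1, Sult1e1, Sult2a1, Sult2a2, Sult2a8, Sult3a1 and Sult5a1, which are 10 of the 23347 genes in the count table. The genes were taken by symbol, and the family was chosen on the measured difference in expression between the same 2 groups of livers, so the differences between groups are described here without a test. The table holds 6 further rows of the family, Sult2a3, Sult2a5, Sult2a6, Sult2a7, Sult2b1 and Sult4a1, which are given where a result turns on them.

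RNA-seq was performed on whole livers of male mice on a C57BL/6 background, 6 to 8 weeks old at the start, that had received CDAHFD for 15 weeks, a high-fat diet lacking choline and built on defined L-amino acids that produces steatohepatitis. The 4 control mice were B4galt1 flox/flox littermates (genotype label WT), and the other 3 mice carried the same floxed alleles with Alb-Cre, which deletes B4galt1 in hepatocytes (genotype label B4galt1-HKO, written B4galt1 hep−/− here). B4GALT1 is a Golgi galactosyltransferase that extends N-glycans. Each mouse gave 1 library, all mice shared the diet, and chow-fed mice were not analysed here.

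Total counts were 37838654 to 39668509 in B4galt1 flox/flox livers and 30608271 to 34586588 in livers labelled B4galt1 hep−/−. B4galt1 itself was at 28.4, 23.8 and 53.7 CPM (counts scaled to a common library size) across replicates 1, 2 and 3 labelled B4galt1 hep−/−, against 48.7 to 52.9 CPM in B4galt1 flox/flox livers, so replicate 3 went against its label on this scale, and results that rest on it are also given without it. On the deposited FPKM scale replicate 3 was at 11.9, just below the 12.2 to 14.0 of B4galt1 flox/flox livers, with 6.47 and 6.52 in replicates 1 and 2. Mitochondrially encoded genes took 3.88% to 7.996% of counts in B4galt1 flox/flox livers and 14.4% to 22.6% in livers labelled B4galt1 hep−/−. Summed levels of 8 hepatocyte markers, mostly Alb, overlapped between the groups (90980 to 132786 CPM against 102197 to 162905 CPM), and all 8 were detected in every liver. Of the 8, 5 had a positive and 3 a negative log2 fold change. Apoa1 did not overlap (7164 to 13921 CPM against 14899 to 18634 CPM). Xist stayed at or below 0.301 CPM and 4 Y-linked genes were expressed in every liver.

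Cytosolic sulfotransferases transfer a sulfonate group from the universal donor PAPS (3′-phosphoadenosine 5′-phosphosulfate) to hydroxyl or amino groups of small molecules, which makes them more water-soluble and readies them for export in bile or urine. The SULT1 enzymes act mainly on phenols, including drugs, catecholamines, thyroid hormones and estrogens. The SULT2 enzymes act on hydroxysteroids and bile acids, and the liver is a main site of both. In adult mice several Sult2a genes and Sult3a1 are known as genes of the female liver, and Sult1e1 is known to be low in healthy liver and inducible in metabolic disease.

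Because the clearest differences lay in near copies, the coding sequences are shown before the values. Sult2a1 and Sult2a2 were identical at 97.9% of the 582 coding bases that could be aligned, and 12 bases differed. The annotated Sult2a2 transcript lacks a counterpart for 273 coding bases of Sult2a1. The first 60 coding bases were the same in Sult2a1, Sult2a2 and Sult2a5, and Sult2a8 differed from them at 26 positions. They are shown to make plain that a read lying wholly within these bases fits each of the first 3 genes equally. Capitals mark bases that differ from Sult2a1, and positions follow GENCODE for GRCm38, in which Sult2a1 lies at chr7:13837297-13837356 on the minus strand (exon 1), Sult2a2 at chr7:13733559-13733618 on the plus strand (exon 1), Sult2a5 at chr7:13624045-13624104 on the plus strand (exon 1) and Sult2a8 at chr7:14427860-14427919 on the minus strand (exon 2).
Sult2a1: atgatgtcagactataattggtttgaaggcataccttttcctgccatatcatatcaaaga
Sult2a2: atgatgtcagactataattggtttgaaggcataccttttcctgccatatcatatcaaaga
Sult2a5: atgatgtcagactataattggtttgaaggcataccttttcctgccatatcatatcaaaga
Sult2a8: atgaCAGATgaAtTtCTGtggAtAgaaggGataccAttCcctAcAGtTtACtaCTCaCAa

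The 60-base stretch with the most differences between Sult2a1 and Sult2a2 runs from coding base 200 to 259, in exon 2 of each gene, and holds 4 of them. It is shown because reads that cover it can separate the pair. In it Sult2a5 differed from Sult2a1 at 3 positions. The stretch lies at chr7:13836047-13836106 on the minus strand for Sult2a1, chr7:13734810-13734869 on the plus strand for Sult2a2 and chr7:13625300-13625359 on the plus strand for Sult2a5 (GRCm38).
Sult2a1: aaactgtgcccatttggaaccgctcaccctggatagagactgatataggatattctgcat
Sult2a2: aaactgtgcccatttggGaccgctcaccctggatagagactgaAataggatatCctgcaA
Sult2a5: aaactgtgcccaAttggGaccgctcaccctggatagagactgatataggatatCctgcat

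Of all 100-base windows in the annotated transcripts, 11.4% of those in Sult2a1 and 34.6% of those in Sult2a2 occurred letter for letter in another gene of the family. In Sult2a5 the share was 16.6%. The other 8 genes of the set, Sult2a8 included, had no window in common with another gene. Counts of Sult2a1, Sult2a2 and Sult2a5 are therefore uncertain as single genes, since how multiply mapped reads were handled is not given in the sources used here.

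**Figure D1:**
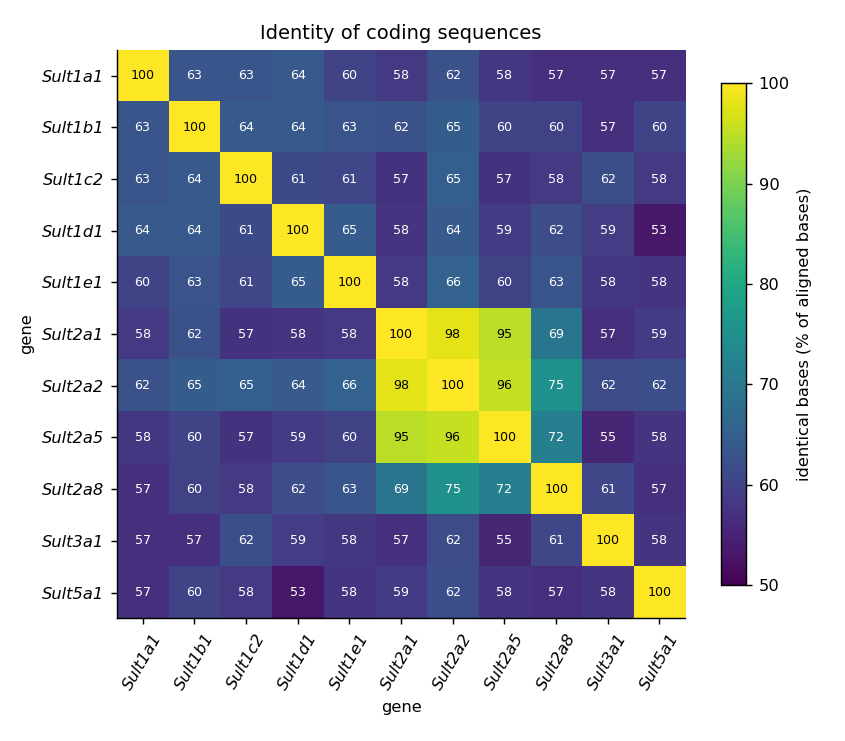
Identity of coding sequences for every pair of 11 sulfotransferase genes, with genes on both axes and colour and number giving identical bases as a percentage of aligned bases. Sult2a1, Sult2a2 and Sult2a5 form a block at 94.9% or more, and every other pair of different genes lies at 75.1% or below.

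The hydroxysteroid and bile acid sulfotransferases Sult2a1 and Sult2a2 were low in B4galt1 flox/flox livers and many times higher in all 3 livers labelled B4galt1 hep−/−. Sult2a1 (NCBI gene 20859, chromosome 7) had 0.161, 0.803, 0.398 and 0.028 CPM in replicates 1 to 4 of B4galt1 flox/flox, from 7, 32, 17 and 1 counts. In replicates 1 to 3 labelled B4galt1 hep−/− it had 17.0, 12.6 and 33.9 CPM, from 524, 419 and 1030 counts. The groups did not overlap, and the lowest liver labelled B4galt1 hep−/− stood well above the highest control. The ratio of group means was 60.9, and the log2 fold change was 5.90 (standard error 0.63).

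Sult2a2 (NCBI gene 100043194, chromosome 7) had 0.092, 7.02, 2.30 and 1.21 CPM in B4galt1 flox/flox livers. In livers labelled B4galt1 hep−/− it had 57.7, 33.0 and 77.1 CPM. The groups did not overlap here either, and the controls spread more widely for this gene (coefficient of variation 115%) and for Sult2a1 (97.8%) than for any other detected gene of the set. The ratio of group means was 21.1 and the log2 fold change 4.40 (standard error 0.80). Without replicate 3, whose B4galt1 CPM went against its label, the log2 fold changes were 5.38 for Sult2a1 and 4.09 for Sult2a2. When mitochondrially encoded genes were left out of the counts and library sizes they were 5.90 and 4.39.

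Their near copy Sult2a5 was at 0, 0.301, 0.047 and 0.028 CPM in B4galt1 flox/flox livers and at 1.62, 0.814 and 1.45 CPM in livers labelled B4galt1 hep−/−. Sult2a5 thus differed by 3.74 on the log2 scale (standard error 0.87), given without a test because it passed the filter on low counts through the group in which it was high. The 3 rows share sequence and so are not separate evidence. Of the remaining Sult2a rows, Sult2a7 stayed below 0.633 CPM everywhere (log2 fold change −0.91), and Sult2a3 and Sult2a6 were too low to be tested. Counts of the 6 Sult2a rows other than Sult2a8 were also summed, a step chosen after the values were seen. The sum does not depend on how counted reads were split among these rows. Shared reads that were counted in no row would be missing from it. Reads shared with Sult2a4 or Sult2a-ps2, which hold windows of Sult2a5 and, for Sult2a4, of Sult2a2, were not analysed here. The sum was 0.575, 8.48, 3.72 and 1.78 CPM in B4galt1 flox/flox livers and 76.6, 46.5 and 113 CPM in livers labelled B4galt1 hep−/− (log2 fold change 4.43, standard error 0.66).

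Sult2a8, the abundant bile acid sulfotransferase of mouse liver (NCBI gene 76971, chromosome 7), showed another pattern. It had 131, 152, 286 and 282 CPM in B4galt1 flox/flox livers and 152, 43.9 and 172 CPM in livers labelled B4galt1 hep−/−. The groups overlapped, with replicate 2 labelled B4galt1 hep−/− below every other liver. The log2 fold change was −0.80 (standard error 0.43), and it ranged from −1.13 to −0.40 when single mice were left out. Since Sult2a8 supplied most Sult2a counts in the controls, the sum over all 7 Sult2a rows hid the opposite signs, with 131, 160, 290 and 284 CPM in B4galt1 flox/flox livers, 228, 90.4 and 285 CPM in livers labelled B4galt1 hep−/−, and a log2 fold change of −0.10 (standard error 0.38).

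**Figure D2:**
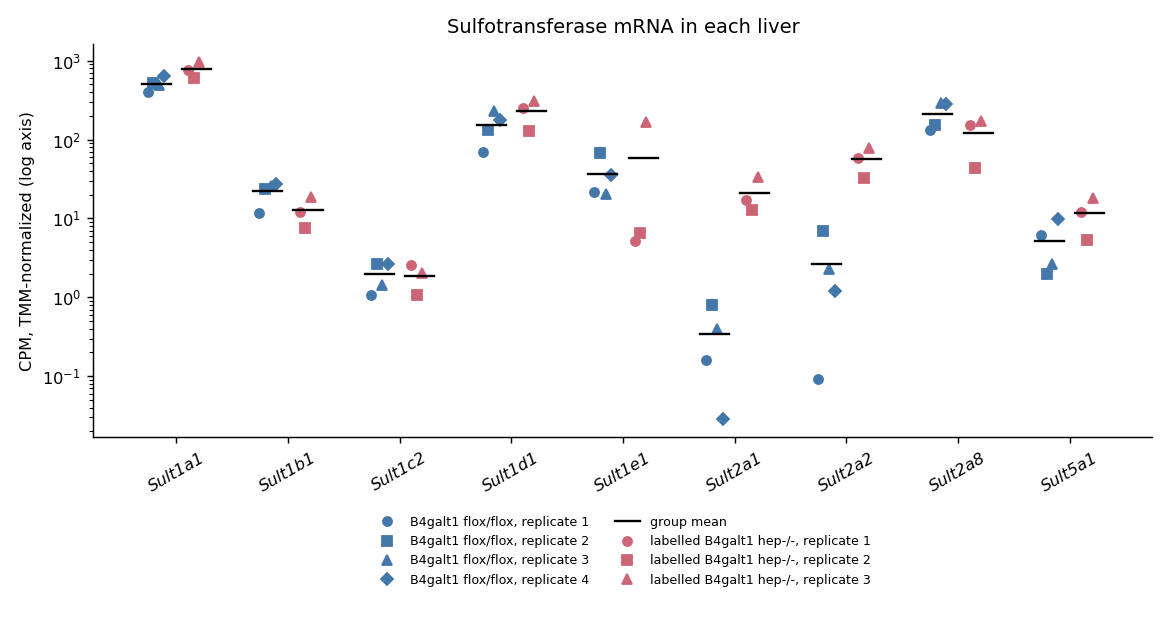
CPM of the 9 detected sulfotransferase genes in each liver on a log axis, with blue symbols for the 4 B4galt1 flox/flox livers, red symbols for the 3 livers labelled B4galt1 hep−/−, symbol shape for the replicate number and black lines for group means. The groups separate for Sult2a1 and Sult2a2, and Sult1e1 in replicate 3 labelled B4galt1 hep−/− stands at 165 CPM.

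Among the phenol-type enzymes, Sult1a1, which sulfonates simple phenols and many drugs (NCBI gene 20887, chromosome 7), had 402, 523, 487 and 631 CPM in B4galt1 flox/flox livers and 765, 595 and 965 CPM in livers labelled B4galt1 hep−/−. The CPM ranges overlapped because replicate 2 labelled B4galt1 hep−/− lay below the highest control. The log2 fold change was 0.60 (standard error 0.24). It stayed positive, from 0.40 to 0.76, whichever mouse was left out.

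Sult1d1, known for sulfonating catecholamines and other monoamines (NCBI gene 53315, chromosome 5), had 69.0, 133, 231 and 176 CPM in B4galt1 flox/flox livers and 250, 127 and 311 CPM in livers labelled B4galt1 hep−/−. The log2 fold change of 0.59 had a standard error of 0.38, and the groups overlapped. Without replicate 3 labelled B4galt1 hep−/− it was 0.30.

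Sult1b1, which acts on thyroid hormones and small phenols (NCBI gene 56362, chromosome 5), had a difference close to that of Sult2a8. Its levels were 11.8, 23.7, 25.8 and 27.4 CPM in B4galt1 flox/flox livers and 11.9, 7.48 and 18.6 CPM in livers labelled B4galt1 hep−/−. Replicate 1 of the controls fell within the range of the other group, and the other 3 controls lay above it. The log2 fold change was −0.81 (standard error 0.34), and −1.20 without replicate 3 labelled B4galt1 hep−/−.

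Sult1e1, the estrogen sulfotransferase (NCBI gene 20860, chromosome 5), was decided by 1 liver. It had 21.4, 67.9, 20.5 and 35.8 CPM in B4galt1 flox/flox livers. In livers labelled B4galt1 hep−/− it had 5.19, 6.60 and 165 CPM, so replicates 1 and 2 lay below every control and replicate 3 above every control. Replicate 3 is the liver in which B4galt1 CPM was not below the controls. The highest liver of that group exceeded the lowest 31.8-fold, against 3.31-fold among the controls. The log2 fold change over all mice was 0.70 (standard error 0.92) and turned to −2.63 (standard error 0.51) without replicate 3. It was also negative in both fits of log2(FPKM + 1), at −0.84, and at −0.96 on log2(FPKM + 0.1).

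Sult1c2, a phenol sulfotransferase better known from stomach and kidney (NCBI gene 69083, chromosome 17), had 1.08, 2.63, 1.45 and 2.63 CPM in B4galt1 flox/flox livers and 2.53, 1.06 and 2.01 CPM in livers labelled B4galt1 hep−/−. The log2 fold change of −0.06 (standard error 0.45) changed sign in 3 of 7 fits that left out 1 mouse. Sult5a1, whose substrates are poorly known (NCBI gene 57429, chromosome 8), had 6.16, 1.96, 2.65 and 9.97 CPM in B4galt1 flox/flox livers and 12.0, 5.31 and 18.3 CPM in livers labelled B4galt1 hep−/−. The groups overlapped, and the log2 fold change was 1.20 (standard error 0.53), or 0.74 without replicate 3 labelled B4galt1 hep−/−. Sult3a1, an amine sulfotransferase (NCBI gene 57430, chromosome 10), had 0 counts in all 7 livers, where 3 counts, the limit that a count of 0 allows, correspond to 0.069 to 0.0986 CPM.

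Of the 10 genes, 9 were tested in the fit over 15179 genes, and 6 had a positive and 3 a negative log2 fold change, with a median of 0.60 beside 0.02 over all tested genes. The filter on low counts kept Sult2a1 through the group in which it was high, so these counts and the median describe the genes and support nothing further. The 2 genes past the thresholds (a log2 fold change beyond 0.58 in either direction at an adjusted p below 0.05) were Sult2a1 and Sult2a2, both higher, beside 8.0% of all tested genes called higher. None was called lower, beside 7.83% of all tested genes. On the CPM scale the same 2 genes were the ones without overlap between groups, beside 28.6% of all tested genes. On the FPKM scale Sult1a1 did not overlap either, at 108 to 139 in B4galt1 flox/flox livers and 151 to 199 in the others. The genes were chosen with this contrast known, so nothing is read from these shares. Over the 9 other settings that kept them, the log2 fold change ranged from 3.85 to 5.93 for Sult2a1 and from 4.34 to 5.16 for Sult2a2, and a filter asking for 10 counts in every liver removed both.

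**Figure D3:**
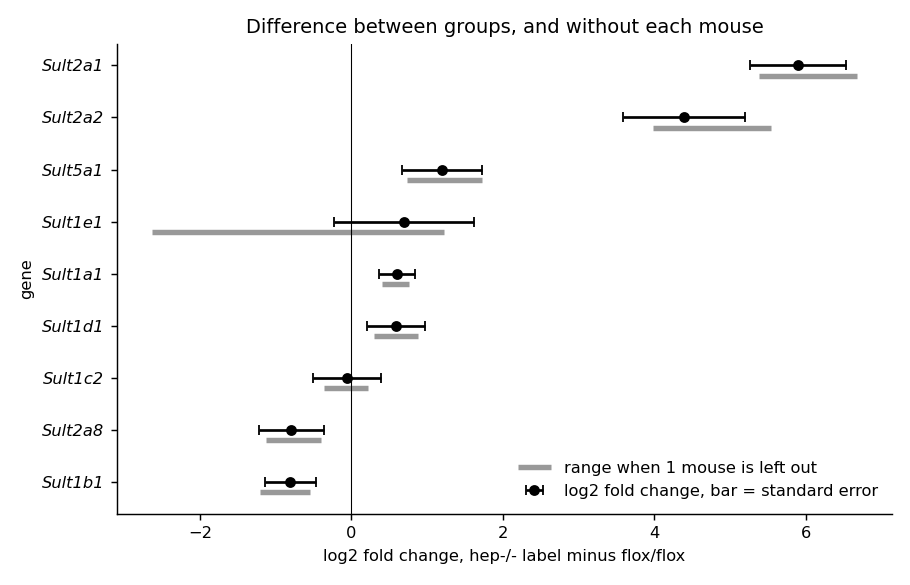
Log2 fold change of the 9 tested sulfotransferase genes (livers labelled B4galt1 hep−/− minus B4galt1 flox/flox) as black points with standard errors, and as grey bars the range of the value when 1 mouse is left out. The bars of Sult1e1 and Sult1c2 cross 0, and those of Sult2a1 (5.38 to 6.68) and Sult2a2 (3.99 to 5.54) lie apart from all others.

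Single livers tended to be high or low for many of the genes together. Replicate 3 labelled B4galt1 hep−/− was the highest of its group for 8 of the 9 detected genes, the exception being Sult1c2, and it was the highest for 33.1% of all tested genes. Replicate 2 was the lowest for 8 of the 9, the exception being Sult1e1, and the lowest for 39.2% of all tested genes. Among the controls, replicate 1 was the lowest for 6 of the 9 (29.2% of all tested genes). The summed hepatocyte markers had the same order within the group labelled B4galt1 hep−/−, with 162905 CPM for replicate 3, 131311 CPM for replicate 1 and 102197 CPM for replicate 2, which also had the highest sum of 6 cholangiocyte markers, 874 CPM against 254 to 657 CPM in the other livers. Their part in the levels was not tested. In whole tissue, fewer cells of a type and less RNA per cell cannot be told apart.

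Levels of different genes were compared on the FPKM scale, which divides by gene length. In B4galt1 flox/flox livers Sult1a1 was highest at 123 ± 12.6 FPKM (SD, n = 4), followed by Sult2a8 at 86.6 ± 31.8, Sult1d1 at 65.5 ± 29.7, Sult1e1 at 29.4 ± 16.9 and Sult1b1 at 8.03 ± 2.25. Sult2a2 (3.64 ± 4.14), Sult5a1 (3.35 ± 2.20), Sult1c2 (1.35 ± 0.466) and Sult2a1 (0.354 ± 0.333) came below 5 FPKM, and Sult3a1 was listed at 0. Neighbours in this order overlapped across mice except Sult1e1 with Sult1b1, Sult1c2 with Sult2a1, and Sult2a1 with Sult3a1.

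In livers labelled B4galt1 hep−/− Sult2a2 ranked in position 3 at 70.1 ± 21.7 FPKM (SD, n = 3), after Sult1a1 (171 ± 25.0) and Sult1d1 (88.8 ± 28.9) and before Sult2a8 (44.3 ± 22.2). Sult2a8 was above Sult2a2 in all 4 B4galt1 flox/flox livers and below it in all 3 of the other livers. Sult1e1 followed by its mean of 41.5 ± 63.8, which rests on replicate 3 (3.73, 5.68 and 115 FPKM in replicates 1, 2 and 3), and in replicates 1 and 2 it was below Sult2a1 (19.2 ± 8.66). Sult5a1 (6.89 ± 3.26), Sult1b1 (4.15 ± 1.49) and Sult1c2 (1.18 ± 0.391) closed the order above Sult3a1. Neighbours did not overlap between Sult1a1 and Sult1d1, between Sult2a1 and Sult5a1, between Sult1b1 and Sult1c2, and between Sult1c2 and Sult3a1. The lengths behind the deposited FPKM were 4264 bases for Sult1a1 and 1583 bases for Sult5a1, against 1289 and 3805 bases for their annotated coding transcripts in GENCODE. Levels of these 2 genes relative to the rest therefore depend on the gene model, with the GENCODE lengths raising Sult1a1, already highest, and lowering Sult5a1.

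As a share of the FPKM summed over the 16 sulfotransferase rows, Sult2a1 and Sult2a2 together made up 0.140%, 3.26%, 0.977% and 0.437% in B4galt1 flox/flox livers. In livers labelled B4galt1 hep−/− they made up 20.6%, 20.3% and 19.2%. At the deposited gene lengths the share was alike in these 3 livers. Their summed sulfotransferase FPKM differed, at 414, 303 and 628, and overlapped with the 230 to 385 of the controls. In the 4 control livers Sult2a8 made up 26.4% ± 5.50 (SD), compared with 9.62% ± 3.45 (SD) over the other 3 livers. Sult1b1 made up 2.46% ± 0.260 (SD) of the control sum, compared with 0.928% ± 0.0142 (SD). Neither pair of ranges overlapped. Sult1a1 took 39.2% ± 6.04 of the control sum and 40.2% ± 9.12 of the other. Shares of a sum depend on each other, so a larger share of one gene lowers those of the rest. All shares therefore rest on the length used for Sult1a1, the largest part of the sum. With 1289 bases in place of 4264, its share would be larger and every other share smaller, that of Sult2a1 and Sult2a2 included. Whether that share would stay alike in the 3 livers was not examined.

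**Figure D4:**
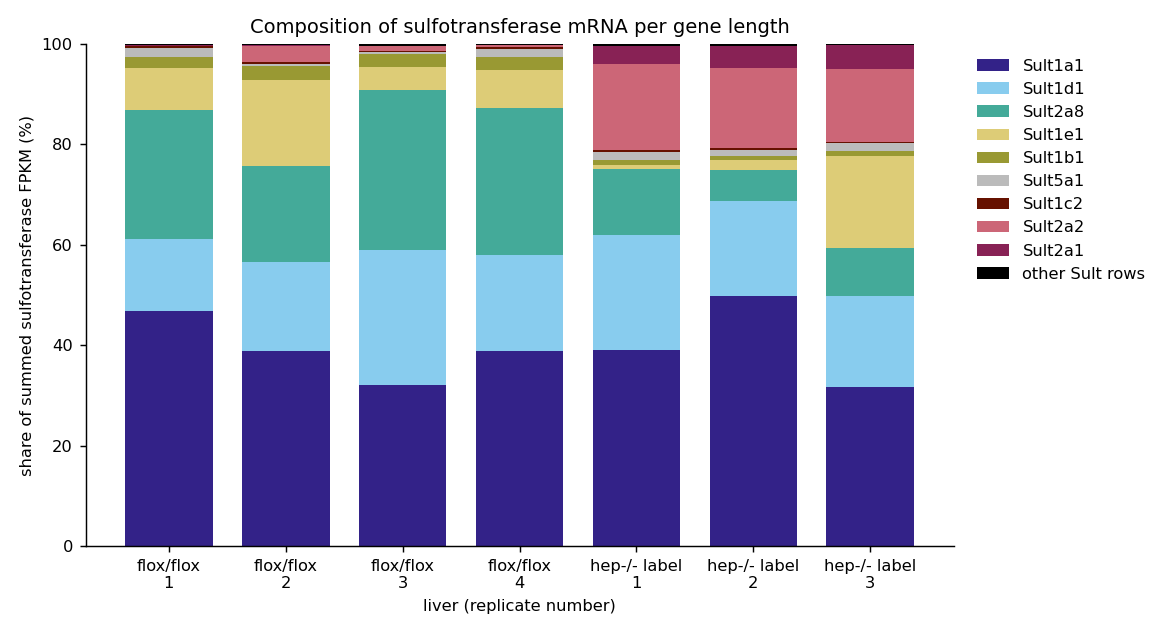
Each bar is 1 liver and stacks the sulfotransferase genes as percentages of their summed FPKM. The pink and purple segments (Sult2a2 and Sult2a1) reach 19.2% to 20.6% together in livers labelled B4galt1 hep−/− and at most 3.26% in B4galt1 flox/flox livers, while the Sult2a8 segment is smaller in the former.

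Within the pair, the ratio of Sult2a2 to Sult2a1 on the FPKM scale was 4.68, 3.60 and 3.14 in livers labelled B4galt1 hep−/− and scattered from 0.787 to 59.2 in B4galt1 flox/flox livers, where 1 of the 4 values rests on a single Sult2a1 count. The tested genes most like Sult2a1 over the 7 livers, by Pearson's r of log2 CPM among 7489 expressed genes, were Zfp410 (0.978), Myom1 (0.972), Alg11 (0.969), Ppid (0.969) and Uspl1 (0.966). Those most like Sult1b1 were Arfip1 (0.988), Serpinb6b (0.988), Nfe2l2 (0.987), Washc3 (0.986) and Dennd1b (0.983). The livers come from 2 groups that differ, so these values describe a likeness of pattern over 7 points only.

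Sult2a1 and Sult2a2 had no promoter sequence in the RefSeq tables of GRCm38.p6 used here, so the motif search does not cover them. For the other 8 of the 10 genes, 250 bases before the annotated start were available (10 windows). These windows were searched on both strands for 7 motifs, namely TTCNNNGAA of STAT factors and the same element with a 4-base spacer, AGGTCA of nuclear receptors, TTGCNNAA of C/EBP factors, TGTTTAC of FOXA factors, the antioxidant response element, and the TATA box TATAAA. There were 9 matches in 6 windows, none overlapping another. AGGTCA was found in windows of Sult1b1, Sult1e1 and Sult2a8, and in 14.0% of 32851 promoter windows of the same length. The STAT element with the 4-base spacer was found in Sult1a1 (5.85% of windows), TTCNNNGAA in Sult3a1 (7.02%), TTGCNNAA in Sult2a8 (9.56%) and TATAAA in both windows of Sult2a8 (12.4%). TGTTTAC (3.17%) and the antioxidant response element (2.47%) were not found in these windows.

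The windows of Sult1e1 (chr5:87591612-87591861, minus strand) and Sult2a8 (chr7:14438552-14438801, minus strand) are shown because these genes had the widest spread in livers labelled B4galt1 hep−/− and the most matches, respectively. Each is written 5′ to 3′ toward the start, with matches in capitals (AGGTCA or its reverse complement, and TATAAA). In Sult1e1 the match lay 113 to 108 bases before the start, and in Sult2a8 the TATA box lay 29 to 24 bases before it. A match is a description of the letters and not of binding.
Sult1e1: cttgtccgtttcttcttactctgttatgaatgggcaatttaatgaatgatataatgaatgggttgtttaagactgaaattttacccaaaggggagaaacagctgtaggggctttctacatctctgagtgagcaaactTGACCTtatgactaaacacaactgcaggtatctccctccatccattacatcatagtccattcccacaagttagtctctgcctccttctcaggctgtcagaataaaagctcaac
Sult2a8: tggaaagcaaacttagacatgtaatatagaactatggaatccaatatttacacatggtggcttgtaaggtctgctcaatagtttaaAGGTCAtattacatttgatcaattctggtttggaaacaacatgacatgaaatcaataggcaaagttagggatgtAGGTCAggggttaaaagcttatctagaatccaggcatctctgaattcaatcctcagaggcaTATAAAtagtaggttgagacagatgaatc

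The genes around sulfonation were examined next, as lists of the steps before and after the sulfotransferases, beside 15.8% of all tested genes called in either direction. All lists were chosen with earlier results of these data known, so their counts and adjusted p-values describe the genes and are no independent support. A few called genes were kept by the filter on low counts only through the group in which they were high, and these are named without a p. In the list for PAPS supply, 3 of 8 tested genes fell and none rose, with a median log2 fold change of −0.48. Papss1 and Papss2, which make PAPS, were level (log2 fold changes 0.00 and 0.00, adjusted p = 0.996 and 0.993 in the edgeR fit), and Papss2 averaged 176 ± 24.9 CPM (SD) in the controls, compared with 176 ± 45.1 CPM. Slc35b2, which carries PAPS into the Golgi and so serves other sulfotransferases, fell from 41.7 ± 7.42 CPM to 25.5 ± 1.16 CPM (log2 fold change −0.71, adjusted p = 0.028 from edgeR). The sulfate transporter Slc26a1 fell in the same edgeR fit (−0.63, adjusted p = 0.038). The remaining gene in the count, the sulfate transporter Slc26a2, was kept only through the controls, at 0.734 to 2.79 CPM there and 0.132 to 0.301 CPM in the others. Bpnt1, which degrades the product PAP, was at 46.3 ± 13.2 CPM and 22.7 ± 10.3 CPM and did not pass (−1.03, adjusted p = 0.055 from edgeR). The count of 3 dropped to 1 without replicate 2 or 4 of B4galt1 flox/flox or replicate 2 labelled B4galt1 hep−/−.

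The list for sulfate from cysteine also holds Cbs and Cth, which make cysteine. Of its 9 tested genes, 1 fell and none rose (median log2 fold change −0.67). This was sulfite oxidase, Suox, which makes sulfate in the last step and averaged 79.3 ± 5.51 CPM (SD) in the controls, compared with 29.95 ± 14.9 CPM in the other livers (log2 fold change −1.41, adjusted p = 0.011 by edgeR). The count was 2 without replicate 1 of B4galt1 flox/flox and 4 without replicate 3 labelled B4galt1 hep−/−.

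Of 9 transporters that carry sulfate conjugates, 5 fell and none rose (median −0.74). The uptake carriers were Slco1b2 (log2 fold change −1.28, adjusted p = 0.013), Slc10a1, the bile acid carrier NTCP (−0.97, adjusted p = 0.042), both from edgeR, and Slco1a1, which was kept only through the controls (0.778 to 8.59 CPM there and 0.030 to 1.18 CPM in the others). The export pumps were Abcc2 of the canalicular membrane (−0.96, adjusted p = 0.023) and Abcc3 of the basolateral membrane (−0.74, adjusted p = 0.027) in the same edgeR fit. The count of 5 fell to 1 without replicate 3 of B4galt1 flox/flox or without replicate 1 or 2 labelled B4galt1 hep−/−, to 2 without replicate 2 of B4galt1 flox/flox and to 3 without its replicate 4.

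Sulfatases, which remove sulfate, were 4 lower and 0 higher of 13 tested (median −0.32). Sts, the steroid sulfatase that opposes sulfonation of steroids, did not pass (0.23, adjusted p = 0.456 from edgeR). The 4 that fell were the lysosomal Galns (−1.13, adjusted p = 0.00510), Arsb (−1.29, adjusted p = 0.00653) and Sgsh (−1.03, adjusted p = 0.035), which act on glycosaminoglycans, and Sumf1, which activates sulfatases (−0.67, adjusted p = 0.0495), all from edgeR. The count was 2 without replicate 2 of B4galt1 flox/flox or without any 1 of the 3 livers labelled B4galt1 hep−/−. Summed levels of 6 macrophage markers were 839 to 1722 CPM in B4galt1 flox/flox livers and 421 to 454 CPM in the others, with 4 of the 6 lower (Adgre1, Cd68, Trem2 and Gpnmb), and their part in the lysosomal genes was not tested.

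Of 22 transcription factors and receptors linked to sulfotransferase or sex-biased gene expression in liver, 4 rose and 1 fell (median 0.21). Among them the pregnane X receptor Nr1i2 (0.81, adjusted p = 0.013), the female-biased factor Cux2 (2.03, adjusted p = 0.015) and Cebpb (0.94, adjusted p = 0.018) rose, and the shared receptor partner Rxra fell (−1.15, adjusted p = 0.00605), all by edgeR. The constitutive androstane receptor Nr1i3 (0.53, adjusted p = 0.117), the bile acid receptor Nr1h4 (0.29, adjusted p = 0.397), Stat5b (0.52, adjusted p = 0.091) and Hnf4a (0.12, adjusted p = 0.730) did not pass in the edgeR fit. The count was 3 without replicate 2 of B4galt1 flox/flox and 6 without replicate 3 labelled B4galt1 hep−/−.

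Because Sult2a1 and Sult2a2 are genes of the female liver and all 7 mice were male, lists of sex-biased liver genes were set beside them. These lists, too, were chosen with earlier results of these data known, so their values are a description only. Of 12 tested female-biased genes 5 rose and 1 fell (median 0.95), where 8.0% of all tested genes were called higher and 7.83% lower. Cyp2b13 rose by 4.70 on the log2 scale (adjusted p = 0.000654 from edgeR) and Cyp2a4 by 3.01 (adjusted p = 0.00236 from edgeR), both steroid-metabolizing cytochromes P450 with near copies. Cyp2b9 (1.003, adjusted p = 0.037) also rose, as did Cux2, and Ntrk2 fell (−2.09, adjusted p = 0.00352), all by edgeR. Cyp3a44, at 0.207 to 0.401 CPM in the controls and 0.693 to 2.37 CPM in the others, was kept only through the latter. Of 19 male-biased genes 10 fell and none rose (median −1.46), 3 of the 10 (Mup7, Slco1a1 and Ugt2b38) kept only through the controls. Of the rest, the 5 of lowest adjusted p were the near copies Cyp4a12b (−2.73, adjusted p = 0.00201) and Cyp4a12a (−2.85, adjusted p = 0.00236), Cyp2d9 (−2.62, adjusted p = 0.00283), Nudt7 (−1.46, adjusted p = 0.00977) and Keg1 (−1.66, adjusted p = 0.012) in the same edgeR fit. The count of 10 was 6 without replicate 4 of B4galt1 flox/flox or replicate 1 labelled B4galt1 hep−/−. Without replicate 3 labelled B4galt1 hep−/− the counts were 5 of the female-biased and 13 of the male-biased genes.

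**Figure D5:**
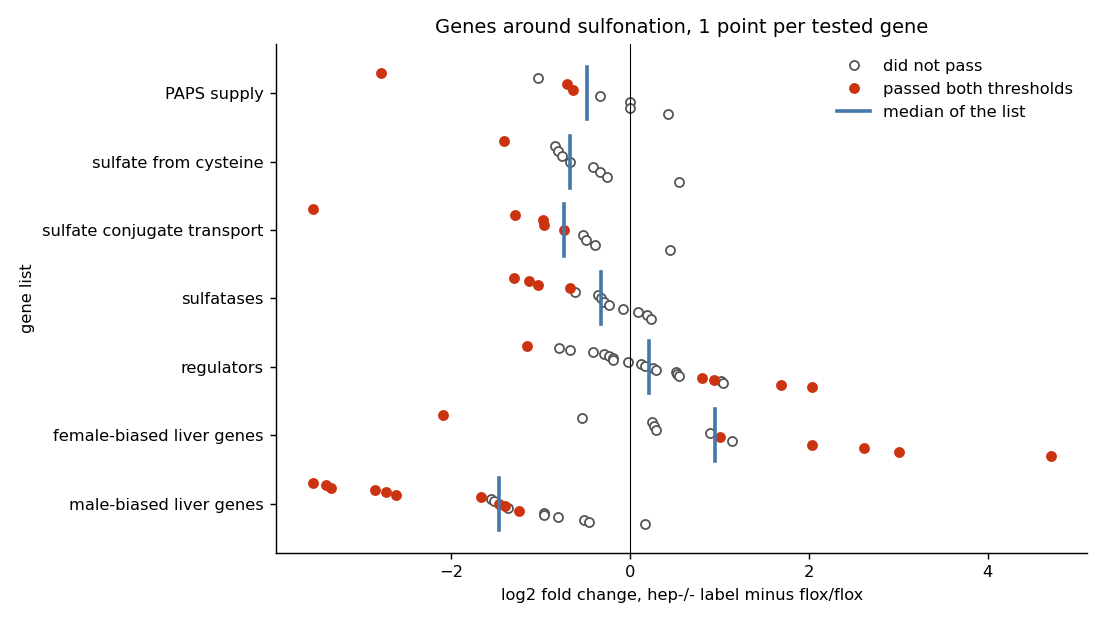
Log2 fold change (livers labelled B4galt1 hep−/− minus B4galt1 flox/flox) of each tested gene in 7 lists, filled in red where it passed both thresholds, with blue bars at list medians. The medians lie below 0 for PAPS supply, sulfate from cysteine, sulfate conjugate transport, sulfatases and male-biased genes, and above 0 for regulators and female-biased genes.

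Markers of liver zones and of other cells were read in the same way. Of 8 pericentral hepatocyte markers 4 fell (Glul, Cyp2e1, Oat and Slc1a2), beside 7.83% of all tested genes called lower, and Axin2 (0.04) and Tbx3 (0.52) had positive log2 fold changes that did not pass. The summed level of the 8, mostly Cyp2e1, was 11132 to 12627 CPM in B4galt1 flox/flox livers and 3028 to 6497 CPM in the others. None of 8 periportal, 6 cholangiocyte, 6 stellate or 7 lymphocyte and neutrophil markers passed, and of 5 endothelial markers Kdr fell. Among genes of neighbouring organs, Adipoq, Cpa1, Acta1 and Umod stayed at or below 0.401 CPM and Muc2 at or below 2.44 CPM. The intestinal fatty acid-binding protein gene Fabp2 was at 99.1 to 190 CPM in B4galt1 flox/flox livers and 60.9 to 138 CPM in the others. Star averaged 0.698 ± 0.182 CPM (SD) in the controls, compared with 2.04 ± 0.632 CPM (log2 fold change 1.54, adjusted p = 0.032 from edgeR). The part of the pericentral and macrophage differences and of the mitochondrial share in the levels of the sulfotransferases was not tested, beyond the values given above without mitochondrially encoded genes.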

How the data were processed

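Liver RNA-seq of 4 B4galt1 flox/flox and 3 B4galt1 hep−/− mice fed CDAHFD was analysed, with 1 library per mouse and groups and replicate numbers taken from the sample labels. The submitters' processing notes name fastp, HISAT2, HTSeq, DESeq2, R 3.2.0 and the build GRCm39, without roles or parameters, and the annotation is not given in the sources used here. The authors deposited raw counts per gene, and FPKM values of the same genes, which divide counts by gene length and library total.

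Counts were filtered by filterByExpr of edgeR 4.0.16 in R 4.3.3 (minimum count 10, minimum total 15), normalized by TMM and tested by the quasi-likelihood F-test with group as the sole term and Benjamini-Hochberg adjustment over 15179 genes. Calls required a log2 fold change beyond 0.58 in either direction at an adjusted p below 0.05, the thresholds of the study. CPM values are TMM-normalized. In data simulated on these counts, 95.5% of 200 genes changed by 2 on the log2 scale were recovered, with 9 false calls among 200. The simulation gave all genes the same dispersion, so it does not measure recovery for genes that spread more widely, such as Sult1e1. P-values set the difference between groups against the spread between mice. Intervals and limits from counts cover counting error only.

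The sulfotransferases and all gene lists were chosen with earlier results of these data known. The text names every sulfotransferase, up to 6 called genes per list by lowest adjusted p, a fixed set of 11 related genes and the 5 genes most like the largest increase and the largest decrease. One listed gene is left out of the text. Alternatives were DESeq2 1.42.0, other normalizations and filters, limma 3.58.1 on log2 FPKM with pseudocounts of 1 and 0.1, a replicate block and each mouse left out. Coding sequences came from GENCODE transcripts of GRCm38 and were aligned in pairs with Biopython 1.88, and promoters came from RefSeq (GRCm38.p6).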

Additional observations from a re-analysis of the deposited data

Results flagged for a closer look

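Over 172 genes, those named by rule in the text and the tested genes of the lists, and 3 library quantities, 16 values had a B4galt1 flox/flox liver far from the other 3 controls by Dixon's test at 95%, and chance flags about 1 in 20 groups. Sult2a5, the near copy of Sult2a1 and Sult2a2, was at 0.301 CPM in replicate 2, above the other controls, and replicate 2 was also the highest control for Sult2a1 and Sult2a2. In the same liver the female-biased Cyp3a44 (0.401 CPM) and Cyp2c40 (4.31 CPM) were high, and Slco2b1 (79.6 CPM) and Nr1h3 (76.1 CPM) were low. In replicate 4 the bile export pump Abcc2 (236 CPM), the cholangiocyte marker Krt19 (1.41 CPM) and the stellate marker Col3a1 (141 CPM) were low, and Serpina1e (1398 CPM) was high. In replicate 3 the endothelial markers Lyve1 (48.4 CPM), Pecam1 (35.1 CPM) and Clec4g (90.8 CPM), the macrophage marker Adgre1 (71.3 CPM), the neutrophil marker Retnlg (2.11 CPM) and Ahr (55.8 CPM) were high. In replicate 1 Abcg2 (62.4 CPM) was low.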

How the results depend on the processing

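The sulfotransferases were chosen on this contrast, so their calls are counts only. With 10 counts in every liver as a filter, 7 genes of the set and 0 calls among them were left. Sult2a1 went from 5.90 to 3.85 in both fits of log2(FPKM + 1). Genes of the set beyond the thresholds only under alternatives were Sult1a1 with DESeq2, Sult1b1 in both filtered FPKM fits and without replicate 1 of B4galt1 flox/flox, Sult5a1 with at least 1 count in any liver and with the replicate block (1.72), and Sult1e1 without replicate 3 labelled B4galt1 hep−/− (−2.63). Summing all 7 Sult2a rows gave a log2 fold change of −0.10. Leaving out 1 mouse gave between 885 and 2396 calls over all genes (2404 with all mice), 2 to 3 among the sulfotransferases, 1 to 3 for PAPS supply, 1 to 4 for sulfate from cysteine, 2 to 3 for sulfatases, 1 to 5 for sulfate conjugate transport, 3 to 6 for regulators, 4 to 6 for female-biased and 6 to 13 for male-biased genes. With DESeq2, 3 genes of sulfate from cysteine and 8 regulators were called, and with at least 1 count in any liver 2 genes of sulfate from cysteine. With limma on log2(FPKM + 1) and on log2(FPKM + 0.1), 4 genes of sulfate from cysteine and 3 female-biased genes were called, and on log2(FPKM + 1) without a filter 1330 genes in all and 3 regulators. FPKM moved the median of all genes by −0.07 to −0.13 over its 3 fits, and 24.5% of its calls on log2(FPKM + 1) were higher, against 50.5%. With the replicate block, 1267 genes in all and 3 genes of sulfate conjugate transport were called, and Sult1e1 went to −1.19. Same-numbered mice are different animals, and their deviations correlated at −0.34, −0.03 and 0.08, so the numbers do not pair them. The causes of these moves were not tested. Depth limits Sult2a1 and Sult2a5 in the controls, and Sult2a2 in replicate 1.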
